A study of Arabidopsis thaliana with 36 samples.

Results

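The subject here is how shoots of Arabidopsis thaliana responded to 1 h in PEG+SHAM, a mix of polyethylene glycol (PEG) and salicylhydroxamic acid (SHAM). It rests on 6 of the 36 libraries of the series, 3 of shoots held for 1 h in PEG+SHAM and 3 of shoots held in water, the water set whose titles carry the prefix PS0. All seedlings were wild type of ecotype Columbia-0 and 7 d old, grown at 21 °C, and each biological replicate was a pool of 30 to 50 seedlings whose roots and shoots were separated after treatment. The treated seedlings stood in 30% PEG of average molecular weight 8000, with an osmotic pressure of -2.0 MPa. Their label gives 1 mM SHAM, while the treatment protocol also names 0.1 mM, and the controls are labelled as water for 1 h although the design text speaks of 0 h. Shoots after 2 h and 3 h in PEG+SHAM, the other water sets (S0 and PH0) and the matching root libraries serve below only for comparison, with 3 libraries in each group. With no group here that received PEG or SHAM singly, what each agent contributed cannot be told apart.

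PEG draws water from the plant without entering it quickly, and the main hormone of the plant's answer to water loss is abscisic acid (ABA). ABA is made through the carotenoid-cleaving enzyme NCED3. It is bound by receptors of the PYR/PYL family, which then hold back type 2C protein phosphatases (PP2Cs), the brakes of the pathway, so that downstream kinases and transcription factors of the NAC, DREB/ERF and HD-Zip families come into play. SHAM inhibits the alternative oxidase of mitochondria and the lipoxygenases that start jasmonate synthesis.

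Transcripts were counted from their 3′ ends by MARS-seq, and the values are gene counts that the authors divided by a size factor per library (normalized counts). The 1 h libraries held 1746.9 to 2263.7 kiloreads and the PS0 libraries 512.6 to 2651.5. A single read was therefore worth 0.647 to 0.888 normalized counts in the 1 h libraries and 0.56 to 3.53 in the PS0 libraries. The libraries carried shoot transcripts: 47 photosynthesis genes summed to 355159.9 to 372031.8 normalized counts at 1 h and 372900 to 482340.8 in PS0, against 1385 to 12676.1 in root libraries. The 18 root markers in the table summed to 37.4 to 50.9 at 1 h and 35 to 95.2 in PS0, against 1100.7 to 4292.8 in roots, and 5 to 6 of them were at 0 in each 1 h library and 6 to 11 in each PS0 library. In such whole-organ samples, fewer cells of a type and less RNA per cell cannot be told apart.

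After 1 h, few shoot genes were called as changed, among them NCED3, the PP2C genes ABI1 and PP2CA, ABA receptors of the PYL family and 6 stress NAC factors. With 3 libraries in each group, a gene that was not called is not shown to be unchanged. Of 10459 genes tested, 68 were higher in PEG+SHAM (0.65%) and 23 lower (0.22%) by limma at a Benjamini-Hochberg adjusted p under 0.05, and the median log2 change of all tested genes was -0.02, with 5442 of the 10459 changes negative. Of the calls 74.7% were higher, against 64.2% of the 204 genes that DESeq2 called. Every one of the 91 called genes had 3 treated libraries outside the range of the 3 PS0 libraries, where 6.67% of all tested genes lay above it and 6.99% below. The absolute log2 changes of called genes ran between 0.75 and 4.77. The count rests on few libraries: it was 28 without 1 h replicate 3, 33 without 1 h replicate 2, 55 without 1 h replicate 1, 51 without PS0 replicate 1, 58 without PS0 replicate 2 and 149 without PS0 replicate 3. Of the 91 genes, 25 stayed called in each of these 6 fits, and for most of the other called genes named below, the libraries whose absence ended the call are given with the adjusted p. The gene lists counted below were chosen with earlier results of these data known. Their shares of called members therefore describe the lists and are no independent test.

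**Figure D1:**
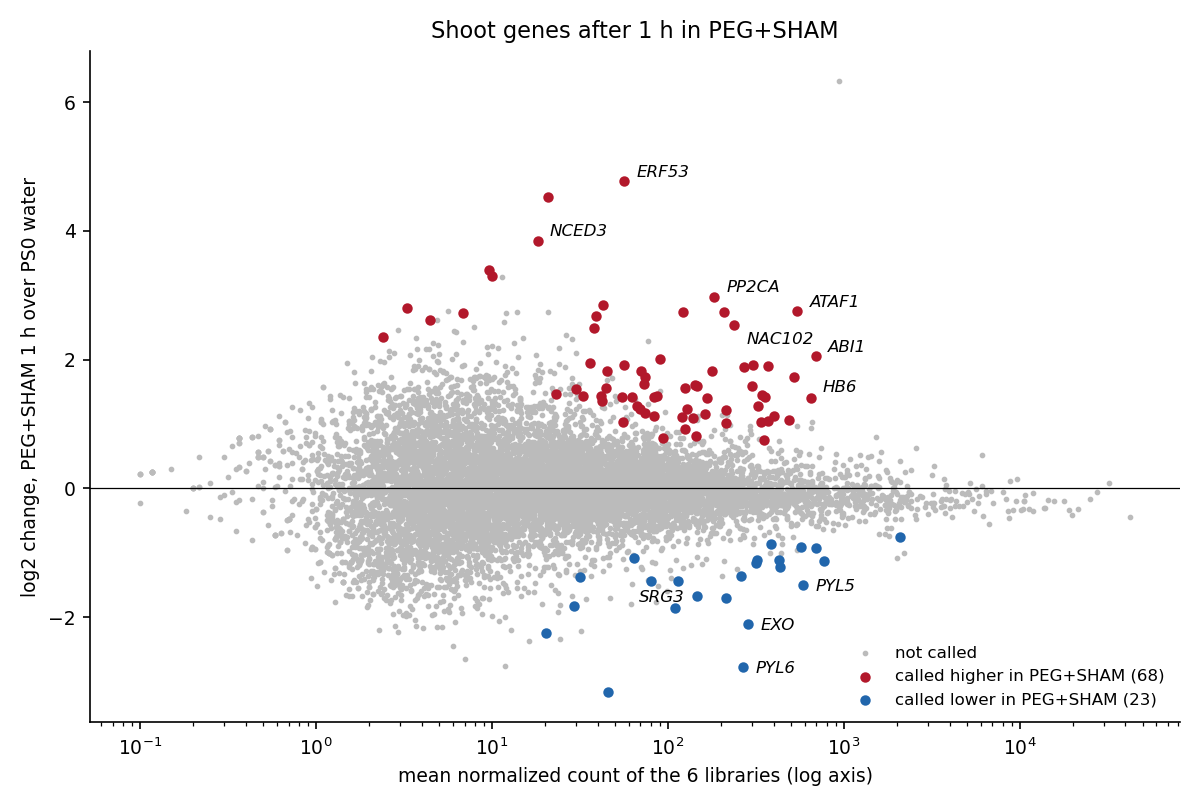
Change of each tested gene in shoots after 1 h, as log2 of PEG+SHAM over PS0 water (vertical axis), against its mean normalized count over the 6 libraries (horizontal log axis, genes with a mean of 0 not drawn). Red points are the 68 genes called higher, blue points the 23 called lower and grey points the rest, and the called genes reach 4.77 above and 3.16 below 0.

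Among 7 tested genes of ABA synthesis and breakdown, 1 was called, NCED3, which was higher in PEG+SHAM, where 0.65% of all tested genes were. NCED3 (AT3G14440) had 21.3, 36.9 and 45.7 normalized counts at 1 h, against 0, 3.1 and 2.2 in PS0. All treated libraries stood far above all 9 water libraries, of which the highest held 3.1 (log2 change 3.85 ± 0.62 SE, limma adjusted p = 0.00252). The other enzymes did not pass the test: ABA1, which makes violaxanthin, had 63.9, 77 and 65.2 at 1 h and 105.8, 72 and 66.1 in PS0, and CYP707A1, which breaks ABA down, had 1.3 to 4 at 1 h and 3.1 to 7.1 in PS0. The median log2 change of the 7 genes was -0.05, near that of all tested genes.

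All 7 tested PP2Cs of ABA signalling had positive log2 changes, and 2 of them rose by the test, where 0.65% of all tested genes did. The list median was 1.91. PP2CA (AT3G11410), a phosphatase that blocks ABA-activated kinases, had 255.7, 303 and 417.6 normalized counts at 1 h, against 45.8, 44.4 and 30.2 in PS0. ABI1 (AT4G26080), the phosphatase of the classical ABA-insensitive mutant, had 870.9, 1044.3 and 1451.1 at 1 h, against 282.1, 232.7 and 275 in PS0. In both genes every treated library was well above every PS0 library, replicate 3 was the highest of the treated, and both calls held whichever library was left out (log2 2.98 ± 0.31, limma adjusted p = 8.81e-06, and 2.06 ± 0.20, adjusted p = 4.05e-06). ABI2, the near relative of ABI1, had 24.9, 29.1 and 47.7 at 1 h and 0, 18.4 and 5.6 in PS0, so its groups did not overlap, but the spread of the water libraries left it short of the threshold (log2 2.74, limma adjusted p = 0.0603). The others had log2 changes of 1.91 (HAI2, adjusted p = 0.14), 1.37 (HAI1), 1.32 (HAB1, adjusted p = 0.0795) and 0.88 (HAB2), and edgeR's quasi-likelihood test on recovered reads called 5 of the 7 higher, where it called 1.23% of all tested genes higher and 0.373% lower.

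The receptors went the other way: 3 of 8 tested PYR/PYL genes fell and none rose, where 0.22% of all tested genes fell. The list median was -0.59. PYL6 (AT2G40330) had 90.6, 53.1 and 59.8 normalized counts at 1 h, against 564.1, 480.7 and 353.5 in PS0. Its treated libraries were below all 9 water libraries, the lowest of which held 341.5 (log2 -2.77 ± 0.29, limma adjusted p = 1.09e-05), and the call held whichever library was left out. PYL5 (AT5G05440) had 417.3, 233.7 and 266.3 at 1 h, against 1145.9, 891 and 583.7 in PS0. PYL4 (AT2G38310) had 223.7, 195.5 and 152.6 at 1 h, against 356.1, 310.8 and 664.9 in PS0. Both were lower in every treated library than in any water library, by log2 -1.50 ± 0.31 (limma adjusted p = 0.0201) for PYL5 and -1.15 ± 0.24 (adjusted p = 0.0257) for PYL4. The call of PYL5 was lost without 1 h replicate 2 (adjusted p = 0.145), 1 h replicate 3 (0.125), PS0 replicate 1 (0.142) or PS0 replicate 2 (0.0915), and that of PYL4 without 1 h replicate 2 (0.1), 1 h replicate 3 (0.191) or PS0 replicate 3 (0.0651). Of the other receptors, PYR1 had log2 -0.71, PYL8 -0.48, PYL2 -0.42, PYL1 -0.06 and PYL9 0.62, and none passed the test.

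**Figure D2:**
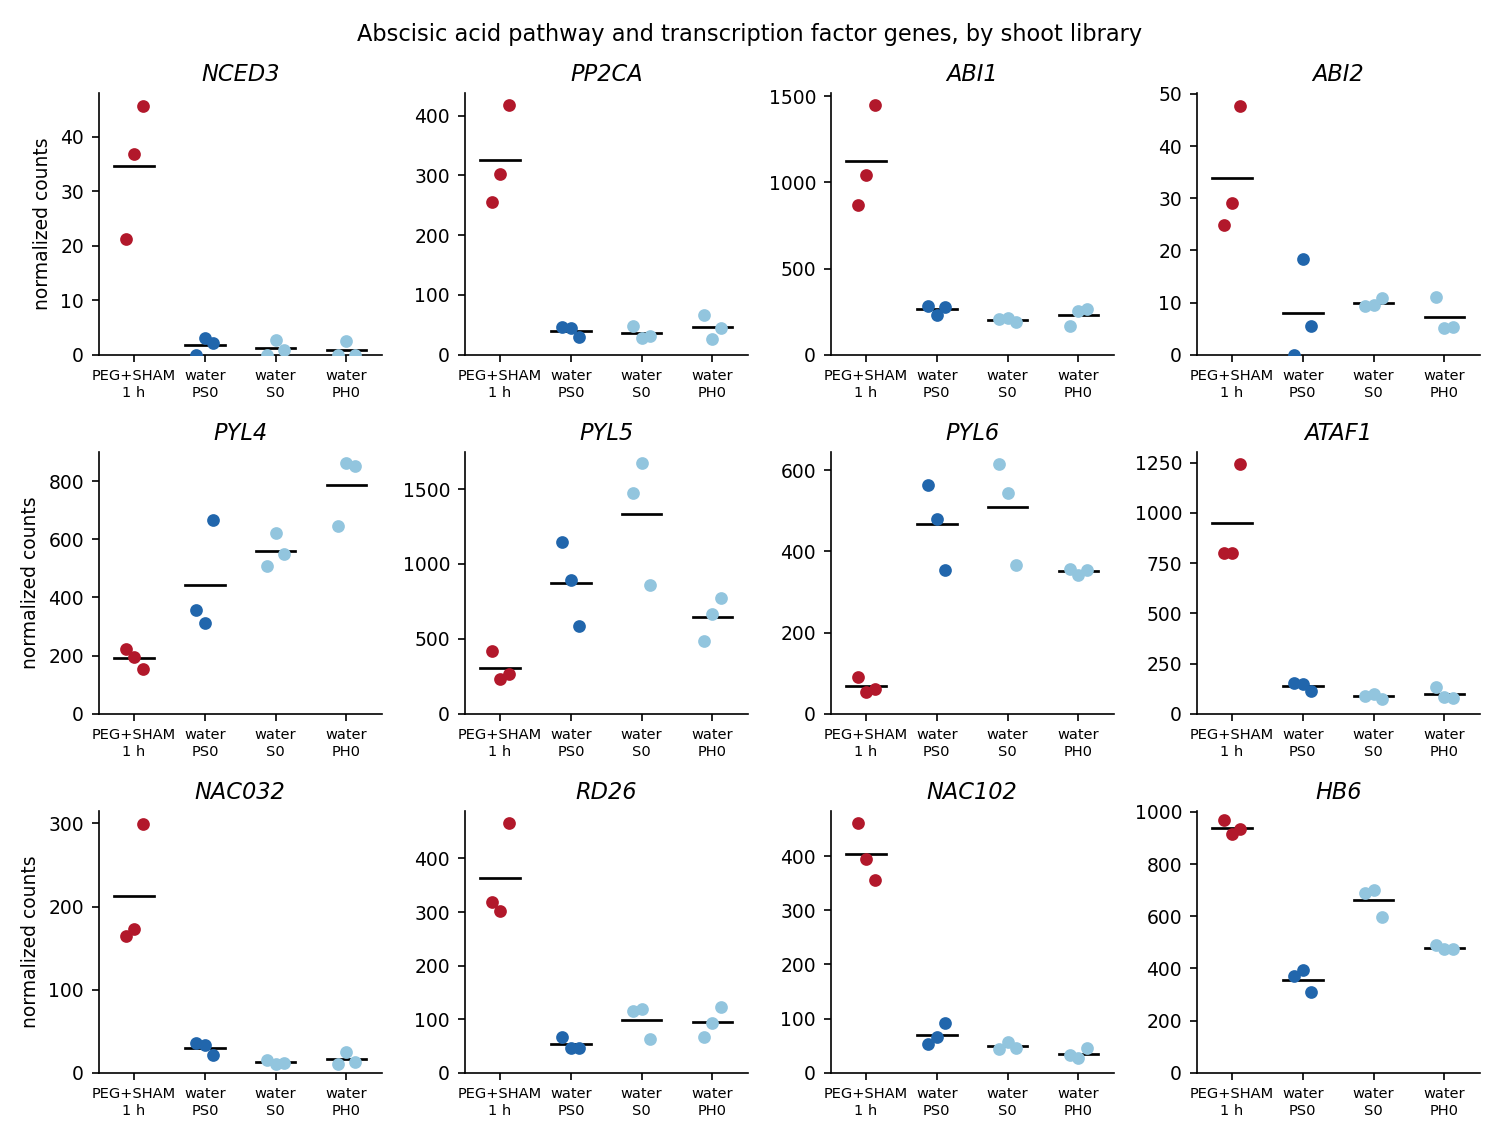
Normalized counts (vertical axes, starting at 0) of 12 genes in each shoot library after 1 h in PEG+SHAM (red), in the PS0 water set (dark blue) and in the other water sets S0 and PH0 (light blue), with 3 libraries a group and black bars at group means. NCED3, PP2CA, ABI1 and the NAC genes are high only in the treated group, PYL4, PYL5 and PYL6 are low there, and for HB6 the S0 and PH0 libraries lie between the PS0 and the treated ones.

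The 250 bases before the annotated start of 7 of these genes are shown, as examples of ABA pathway and NAC genes that rose with many, few or no copies of the core of the ABA-responsive element (ABRE, ACGTG), and of PYL6, which fell. They are RefSeq's sequence of the TAIR10.1 build, matched by locus, printed 5′ to 3′ on the strand of the gene and in lower case except for matches to ACGTG or to the core of the dehydration-responsive element (DRE, CCGAC), on either strand. CACGTG counts once on each strand, and in ACGTGTCGG a match to each motif overlaps. The stretches are chr3:3585851-3586100 (minus strand) for PP2CA, chr1:22198016-22198265 (plus) for PUB19, chr1:29099589-29099838 (plus) for NAC032, chr4:13709171-13709420 (minus) for RD26, chr4:13222377-13222626 (minus) for ABI1, chr3:4834016-4834265 (minus) for NCED3 and chr2:16846195-16846444 (minus) for PYL6.
PP2CA: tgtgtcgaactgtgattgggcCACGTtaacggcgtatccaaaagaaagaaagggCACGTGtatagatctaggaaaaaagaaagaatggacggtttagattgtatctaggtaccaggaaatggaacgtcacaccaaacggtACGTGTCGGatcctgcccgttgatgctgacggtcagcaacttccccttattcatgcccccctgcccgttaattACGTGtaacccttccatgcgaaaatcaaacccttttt
PUB19: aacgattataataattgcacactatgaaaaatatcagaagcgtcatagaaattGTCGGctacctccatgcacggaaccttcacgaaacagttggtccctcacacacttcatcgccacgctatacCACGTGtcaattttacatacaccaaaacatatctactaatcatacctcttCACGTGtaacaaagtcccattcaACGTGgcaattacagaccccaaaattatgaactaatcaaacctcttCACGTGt
NAC032: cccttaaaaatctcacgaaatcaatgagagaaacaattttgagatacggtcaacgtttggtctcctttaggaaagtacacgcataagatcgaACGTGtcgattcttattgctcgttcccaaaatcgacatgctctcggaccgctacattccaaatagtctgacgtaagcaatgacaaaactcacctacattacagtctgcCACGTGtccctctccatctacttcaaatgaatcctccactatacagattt
RD26: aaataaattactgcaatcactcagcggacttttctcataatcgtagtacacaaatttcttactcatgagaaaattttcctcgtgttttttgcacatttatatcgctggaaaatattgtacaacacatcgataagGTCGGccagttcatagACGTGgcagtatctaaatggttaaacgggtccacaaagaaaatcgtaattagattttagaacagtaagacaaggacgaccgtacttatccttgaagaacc
ABI1: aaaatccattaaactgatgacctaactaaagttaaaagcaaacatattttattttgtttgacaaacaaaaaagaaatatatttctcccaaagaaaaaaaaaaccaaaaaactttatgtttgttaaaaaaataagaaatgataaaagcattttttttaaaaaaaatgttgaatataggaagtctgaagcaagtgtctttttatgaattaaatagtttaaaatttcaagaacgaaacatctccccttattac
NCED3: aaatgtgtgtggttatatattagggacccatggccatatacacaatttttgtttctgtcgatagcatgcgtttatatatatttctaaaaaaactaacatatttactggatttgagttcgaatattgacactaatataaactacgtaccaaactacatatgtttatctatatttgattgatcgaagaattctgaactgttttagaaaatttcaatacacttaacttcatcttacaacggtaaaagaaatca
PYL6: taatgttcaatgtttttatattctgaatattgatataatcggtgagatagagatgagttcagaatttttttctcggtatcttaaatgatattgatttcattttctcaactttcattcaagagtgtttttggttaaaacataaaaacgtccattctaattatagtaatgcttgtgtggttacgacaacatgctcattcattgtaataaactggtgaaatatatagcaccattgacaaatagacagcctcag
PUB19 held 7 ABRE core matches, PP2CA 5, NAC032 3 and RD26 1, while ABI1, NCED3 and PYL6 held none in this window. PP2CA, PUB19 and RD26 also held 1 DRE core match each. The ABRE core was present in 33.8% of the 68 genes called higher and in 26.1% of the 23 called lower, against 24.4% of the tested genes and 20.8% of all annotated nuclear genes. The DRE core was present in 13.2% of the genes called higher and 4.3% of those called lower, against 13.1% of the tested genes. A match is a stretch of letters and no measured binding site.

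Of 13 listed stress NAC transcription factors with values, 7 were tested and 6 rose, where 0.65% of all tested genes did. The median log2 change of the 7 was 2.53. ATAF1 (AT1G01720), a NAC factor induced by drought and wounding, had 799.9, 800.9 and 1242 normalized counts at 1 h, against 151.6, 150 and 112.6 in PS0. NAC032 (AT1G77450), from the same subfamily, had 165.1, 172.9 and 299.9 at 1 h, against 35.3, 33.7 and 21.8 in PS0. RD26 (AT4G27410), a NAC factor of the ABA response, had 319.6, 301.7 and 466.7 at 1 h, against 67, 45.9 and 47.1 in PS0. In these genes the treated libraries were several-fold above PS0 and also above S0 and PH0, with replicate 3 the highest. NAC102 (AT5G63790) had 460.8, 394.3 and 355.7 at 1 h, against 52.9, 65.8 and 91.9 in PS0, so there replicate 3 was the lowest of the treated libraries. NAC055 (AT3G15500) had 87, 73.8 and 52.4 at 1 h against 21.2, 21.4 and 15.1 in PS0, and ATAF2 (AT5G08790) had 483.8, 380.7 and 490.9 at 1 h against 112.8, 194.4 and 146.8 in PS0. The log2 changes were 2.75 ± 0.24 for ATAF1, 2.75 ± 0.32 for NAC032, 2.74 ± 0.26 for RD26, 2.53 ± 0.24 for NAC102, 1.82 ± 0.29 for NAC055 and 1.6 ± 0.24 for ATAF2, with limma adjusted p between 2.01e-06 and 0.0022, and these calls held whichever library was left out. The seventh member, NAC6, had 0.9 to 4.7 at 1 h and 0 to 3.5 in PS0.

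Of 25 tested members of the list of DREB and ERF factors, which bind DRE and GCC-box motifs, 3 were higher and none lower. Of all tested genes, 0.65% were higher and 0.22% lower. ERF53 (AT2G20880), a drought-induced member, showed the largest called change: 73.7, 104.2 and 152.6 normalized counts at 1 h, against 3.5, 3.1 and 2.2 in PS0. It was listed at 0 in all S0 and PH0 libraries (log2 change over PS0 4.77 ± 0.32, limma adjusted p = 6.12e-08). Like NCED3, ERF53 passed the filter for testing only through treated libraries. RAP2.4 (AT1G78080) had 414.6, 448.7 and 581.7 at 1 h, against 126.9, 114.8 and 133.3 in PS0. AT1G22190, annotated with the same DNA-binding domain, had 616.1, 490.1 and 652.3 at 1 h, against 123.4, 197.5 and 154 in PS0. Both exceeded all 9 water libraries (log2 1.92 ± 0.19, limma adjusted p = 4.65e-06, and 1.90 ± 0.30, adjusted p = 0.0021). The cold-response factors CBF1 (log2 0.15), CBF2 (-0.25) and CBF3 (2.28, limma adjusted p = 0.298) and the drought factor DREB2A, at 1.9 to 3.6 normalized counts at 1 h and 0 to 1.1 in PS0, did not pass the test. Outside the list, ERF8 and DEAR3 (DREB and EAR motif protein 3) were also called higher, though not in every fit without 1 library. AT4G28140, also outside it and annotated with an integrase-type DNA-binding domain, had 24.9, 47.3 and 49.8 at 1 h, against 0, 1.5 and 1.1 in PS0. It was called whichever library was left out (limma adjusted p = 4.05e-06). Its PS0 libraries held 3 reads in all, so its ratio of 38.2 to PS0 has an exact 95% interval of 12.9 to 187, for counting error only.

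Of 9 tested HD-Zip class I factors, 2 rose, where 0.65% of all tested genes did. HB6 (AT2G22430), which interacts with ABI1, had 968.6, 913.6 and 935.4 normalized counts at 1 h, against 370.2, 393.5 and 308.7 in PS0, and its treated replicates were within a narrow range (log2 1.4 ± 0.14, limma adjusted p = 7.69e-06). HB-7 (AT2G46680), an ABA-induced relative, had 67.5, 79.6 and 140.5 at 1 h, against 49.4, 39.8 and 25.8 in PS0 (log2 1.28 ± 0.29, limma adjusted p = 0.0427). Its call was lost without 1 h replicate 2 (adjusted p = 0.111), 1 h replicate 3 (0.337), PS0 replicate 2 (0.109) or PS0 replicate 3 (0.106). HB-12, the partner of HB-7, had 20.4, 19.4 and 6.7 at 1 h and 0, 6.1 and 3.9 in PS0 and did not pass (adjusted p = 0.27).

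The transcription factor genes HEC1 and HAT2 were called higher and RAV1 and RAV2 lower. HEC1 (AT5G67060), a basic helix-loop-helix factor of the shoot meristem and fruit, had 211.3, 323.7 and 309.3 normalized counts at 1 h, against 84.6, 79.6 and 67.8 in PS0. HAT2 (AT5G47370), an auxin-induced HD-Zip class II factor, had 195.3, 226.6 and 225.3 at 1 h, against 77.6, 59.7 and 73.4 in PS0. Both rose above all 9 water libraries and kept their calls whichever library was left out (log2 1.83 ± 0.21, limma adjusted p = 4.56e-05, and 1.61 ± 0.26, adjusted p = 0.00215). They are in no gene list and not among the largest changes, and were picked for this stability after their values were seen. In the other direction, RAV1 (AT1G13260), an AP2/B3 factor that restrains growth, had 45.3, 40.1 and 39 at 1 h, against 74, 136.3 and 146.2 in PS0. RAV2 (AT1G68840), its relative, had 54.2, 62.8 and 65.9 at 1 h, against 169.2, 151.6 and 180.9 in PS0. Neither group pair overlapped (log2 -1.44 ± 0.26, limma adjusted p = 0.00868, for RAV1, and -1.44 ± 0.31, adjusted p = 0.0268, for RAV2). The call of RAV1 was lost without 1 h replicate 2 (adjusted p = 0.0526), 1 h replicate 3 (0.0617) or PS0 replicate 2 (0.0578), and that of RAV2 in each of the 6 fits without 1 library (0.0566 to 0.129).

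Of 9 tested stress zinc finger factors 1 fell, where 0.22% of all tested genes did. It was AZF3 (AT5G43170), with 134.9, 63.5 and 99.5 normalized counts at 1 h, against 282.1, 483.8 and 216.8 in PS0 (log2 -1.69 ± 0.37, limma adjusted p = 0.0283). Its call was lost without 1 h replicate 2 (adjusted p = 0.212), 1 h replicate 3 (0.111), PS0 replicate 1 (0.0895) or PS0 replicate 2 (0.191). ZAT10, an early stress repressor, had 288.5, 203.3 and 318.1 at 1 h and 116.4, 578.7 and 667.7 in PS0, so PS0 replicate 1 stood far below the other water libraries and the groups overlapped. Of 14 tested WRKY factors, which act mainly in defence and senescence, 1 was called higher, where 0.65% of all tested genes were. This was WRKY6 (log2 1.24 ± 0.29, limma adjusted p = 0.0484), and its call was lost without each library but PS0 replicate 3 (adjusted p from 0.107 to 0.314).

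**Figure D3:**
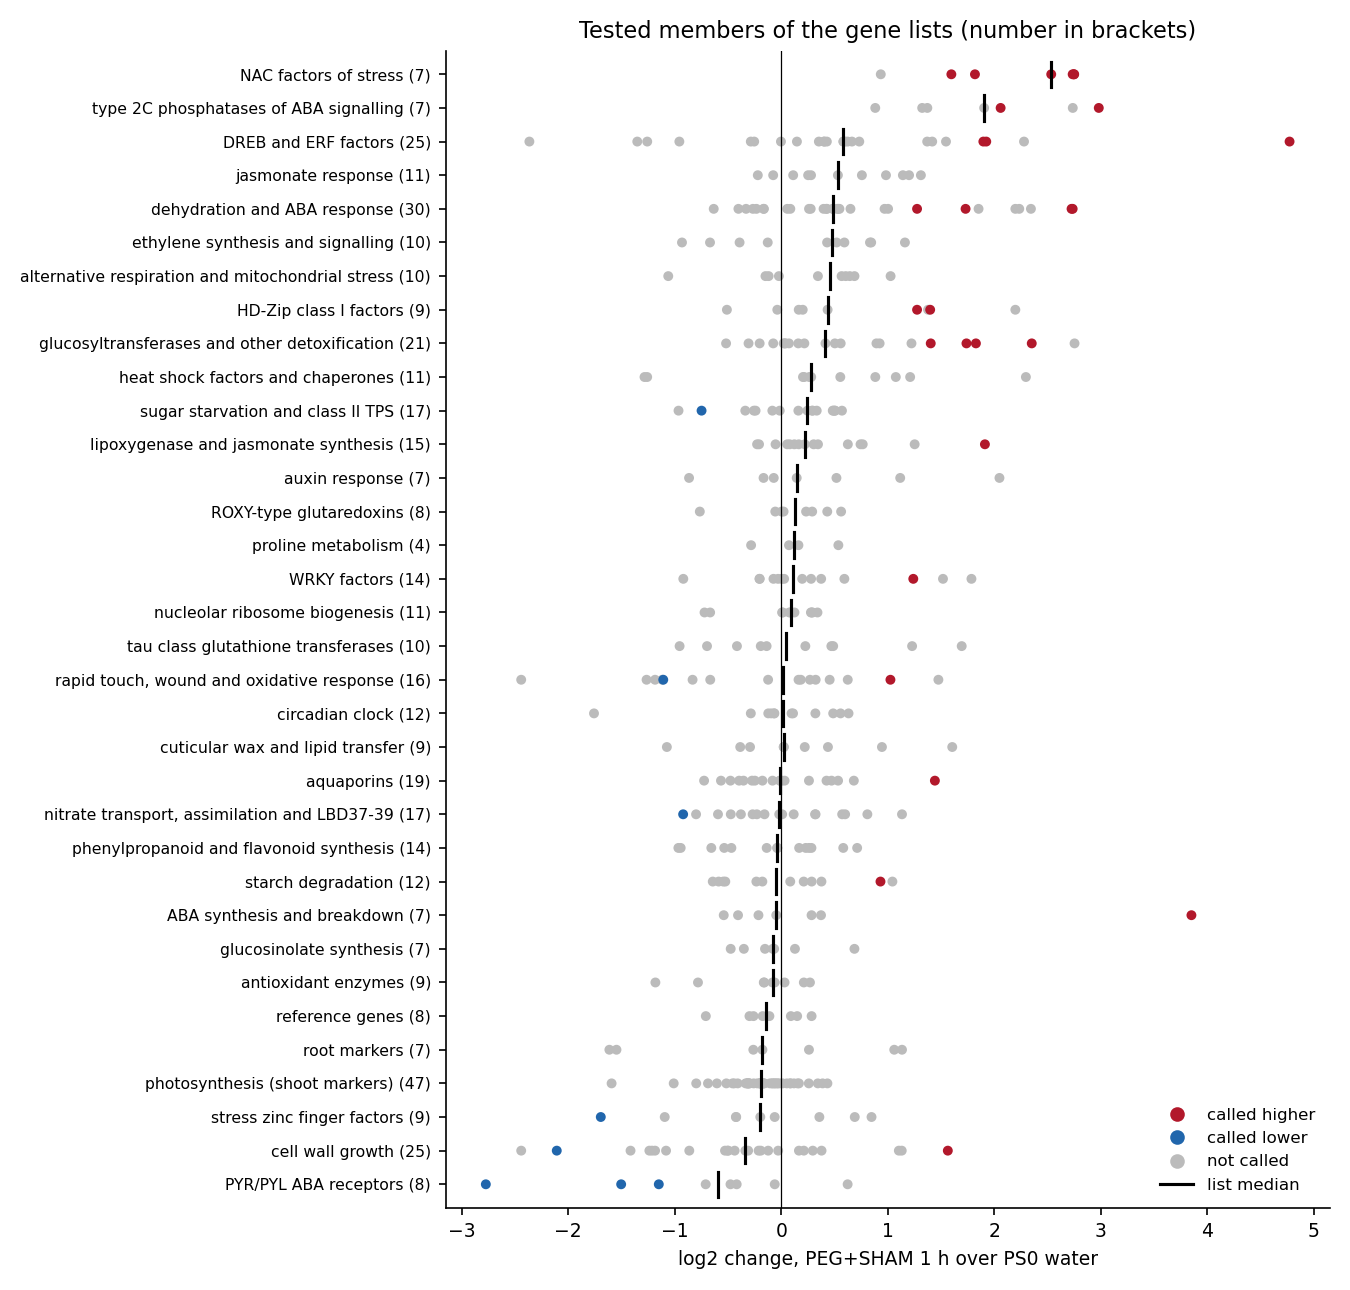
Log2 change at 1 h (PEG+SHAM over PS0 water) of every tested member of the gene lists with at least 4 tested members, one row a list, with list medians as black bars. Red points are genes called higher, blue points genes called lower and grey points genes not called. The NAC and PP2C medians, 2.53 and 1.91, stand highest and the PYR/PYL median, -0.59, lowest.

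Of 30 tested members of the dehydration and ABA response list, 4 were higher and none lower, where 0.65% of all tested genes were higher, with a median of 0.49 and 23 positive changes. At an unadjusted p under 0.05, 11 were higher and none lower, where 445 of all 10459 tested genes were higher and 357 lower. With edgeR 6 were called higher and with DESeq2 7, where these tools called 1.23% and 1.25% of all tested genes higher. RD26 and HB-7, given above, are 2 of the 4 called by limma. ERD10 (AT1G20450), a dehydrin that shields proteins and membranes, had 711.1, 653.9 and 1056.4 normalized counts at 1 h, against 208, 298.5 and 214.5 in PS0 (log2 1.73 ± 0.26, limma adjusted p = 0.00154). MAPKKK18 (AT1G05100), an ABA-induced kinase, had 8.9, 7.8 and 20.8 at 1 h, against 0, 3.1 and 0.6 in PS0 (limma adjusted p = 0.0253), and was lost without each library but PS0 replicate 2 (adjusted p from 0.0505 to 0.205). With 3 reads in all in PS0, its ratio was 11.6, with an exact 95% counting interval of 3.75 to 57.9. RD29A, the usual reporter of dehydration, had 550.4, 594.4 and 1027.5 at 1 h and 437.2, 370.5 and 275 in PS0 and did not pass (log2 0.97, limma adjusted p = 0.0894). RD29B (log2 0.26), RAB18 (-0.63), COR15A (-0.16), KIN1 (0.28) and RD20 (0.48) had treated libraries within or near the range of the water libraries.

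Among enzyme genes, A/N-InvC (AT3G06500), a neutral invertase that splits sucrose, had 48.8, 66 and 85.4 normalized counts at 1 h, against 3.5, 13.8 and 15.7 in PS0. SERAT2;1 (AT1G55920), a serine acetyltransferase that feeds cysteine synthesis and was named after its values were seen, had 435, 374.2 and 473.4 at 1 h, against 109.3, 140.9 and 98 in PS0. Both calls held whichever library was left out (log2 2.67 ± 0.41, limma adjusted p = 0.0018, and 1.88 ± 0.21, adjusted p = 2.03e-05). Of 21 tested glucosyltransferase and other detoxification genes, 4 were higher and none lower, where 0.65% of all tested genes were higher. Their median was 0.41. UGT75B1 (AT1G05560) led them by its statistic, with 97.7, 85.5 and 164.7 at 1 h, against 31.7, 38.3 and 28.6 in PS0 (log2 1.74 ± 0.27, limma adjusted p = 0.0021). UGT73B2 (log2 1.4) was lost without 1 h replicate 3 (adjusted p = 0.0672), and IAGLU (1.83), which attaches glucose to auxin, without 1 h replicate 2 (0.0526) or 1 h replicate 3 (0.0842). UGT76E12 had 1.8, 3.9 and 8.7 at 1 h and 0 in every water library, at least 4.58-fold higher than PS0 at a floor of 3 reads over the PS0 group, and it stayed called only without 1 h replicate 1 (adjusted p from 0.0575 to 0.335 without each of the others). This gene, 1 of the 4 called, passed the filter for testing only through treated libraries, so it could be called only as a rise.

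Of the remaining genes named for the size of their rise, AT1G15430, a gene of unknown function, kept its call whichever library was left out. It had 118.1, 150.2 and 166.8 normalized counts at 1 h, against 24.7, 50.5 and 34.2 in PS0 (log2 2.01 ± 0.25, limma adjusted p = 0.000119). PUB19 (AT1G60190), a U-box ubiquitin ligase of the drought response, had 47.1, 47.3 and 104.9 at 1 h, against 10.6, 9.2 and 10.6 in PS0 (log2 2.50 ± 0.51, adjusted p = 0.0195). It was lost without 1 h replicate 2 (adjusted p = 0.0526), 1 h replicate 3 (0.18), PS0 replicate 1 (0.0702) or PS0 replicate 2 (0.0848). IGMT2 (AT1G21120), a methyltransferase of indole glucosinolates with near-identical neighbours whose reads may be shared, had 71.9, 90 and 61.2 at 1 h, against 3.5, 12.2 and 17.4 in PS0 (log2 2.85 ± 0.61, limma adjusted p = 0.0268). Its call was lost without each library but PS0 replicate 3 (adjusted p from 0.0657 to 0.171). AT5G58620, annotated as a CCCH-type zinc finger, had 43.5, 49.9 and 79.3 at 1 h, against 7.1, 18.4 and 19 in PS0 (log2 1.95 ± 0.36, adjusted p = 0.00857), and was lost without 1 h replicate 3 (0.0852).

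Of the genes named for the size of their fall, AT5G20790, annotated as an uncharacterized protein, had 10.7, 7.8 and 6.7 normalized counts at 1 h, against 70.5, 101 and 76.7 in PS0 (log2 -3.16 ± 0.41, limma adjusted p = 0.000211). EXO (AT4G08950), which promotes cell expansion in the brassinosteroid response, had 110.1, 95.2 and 114.3 at 1 h, against 409, 493 and 486.8 in PS0 (log2 -2.11 ± 0.34, adjusted p = 0.0027). SRG3 (AT3G02040), named for senescence, had 85.2, 59.6 and 63.9 at 1 h, against 179.8, 231.2 and 259.4 in PS0 (log2 -1.67 ± 0.26, adjusted p = 0.00185). These 3 calls held whichever library was left out, and EXO and AT5G20790 were below all 9 water libraries, while 1 of the S0 and PH0 libraries had SRG3 at 77. Of 25 tested cell wall growth genes 1 other was called, the expansin EXPA10, which was higher (log2 1.56 ± 0.27, limma adjusted p = 0.00559, and 0.0609 without 1 h replicate 3). Among all tested genes, 0.65% were called higher and 0.22% lower. Negative changes were found in 18 of the 25 genes (median -0.34).

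The calls of the remaining falls did not hold in every fit without 1 library. AT3G28270, a putative transmembrane protein, had 3.6, 5.8 and 8.1 normalized counts at 1 h, against 56.4, 32.2 and 15.1 in PS0 (log2 -2.25 ± 0.40, limma adjusted p = 0.00698), and was at 0.0501 without PS0 replicate 1. AT4G37240 had 62.1, 35 and 43 at 1 h, against 186.9, 212.8 and 116.5 in PS0 (log2 -1.85 ± 0.35, adjusted p = 0.0116), and was lost without 1 h replicate 2 or 3 or PS0 replicate 1 or 2 (0.0654 to 0.0976). LGT8 (AT1G70090), a glycosyltransferase of family 8, had 13.3, 10.4 and 12.8 at 1 h, against 63.5, 36.7 and 40.3 in PS0 (log2 -1.83 ± 0.36, limma adjusted p = 0.0165). LGT9 (AT1G24170), of the same family, had 19.5, 14.2 and 18.2 at 1 h, against 42.3, 45.9 and 50.4 in PS0 (log2 -1.37 ± 0.32, adjusted p = 0.0428). In all 4 genes the highest treated library was below the lowest PS0 library. LGT8 was lost without 1 h replicate 2 (adjusted p = 0.1), 1 h replicate 3 (0.0723) or PS0 replicate 1 (0.107), and LGT9 in each of the 6 fits without 1 library (0.0796 to 0.242).

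Few genes of the pathways on which SHAM acts passed the test. Of 10 tested genes of alternative respiration and mitochondrial stress none was called by limma, edgeR or DESeq2 (which called 1.25% of all tested genes higher and 0.698% lower). An unadjusted p under 0.05 was reached by 1 of them, and by 802 of all 10459 tested genes. AOX1A, the main stress-induced alternative oxidase, had 40, 55 and 38.3 normalized counts at 1 h, against 38.8, 49 and 46.5 in PS0, with fully overlapping groups (log2 -0.02, limma adjusted p = 0.998). Of 15 tested genes of lipoxygenase and jasmonate synthesis, 1 was called higher by limma (0.65% of all tested genes were), AOC3, an allene oxide cyclase. It had 84.3, 66 and 110.3 at 1 h, against 10.6, 47.5 and 20.2 in PS0 (log2 1.91 ± 0.40, limma adjusted p = 0.0253), and it was lost without each library but PS0 replicate 2 (adjusted p from 0.05 to 0.191). The lipoxygenases had log2 changes of -0.21 (LOX1), 0.12 (LOX2), 0.22 (LOX3), 1.25 (LOX4, adjusted p = 0.747) and 0.63 (LOX6). Among 11 tested jasmonate response genes none was called by any of the 3 tools and 1 had an unadjusted p under 0.05, although 9 of the 11 changes were positive (median 0.53).

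Other lists held single calls or none, where 0.65% of all tested genes were called higher and 0.22% lower. PIP2;3, an aquaporin close in sequence to PIP2;2, was the 1 called member of 19 aquaporins (log2 1.44, limma adjusted p = 0.00956; 0.0579 without 1 h replicate 2 and 0.0876 without 1 h replicate 3), and PIP2;2 had 0.68 (adjusted p = 0.152). The nitrate transporter NRT1.1 was the 1 of 17 nitrate genes to be called, lower at log2 -0.92 (adjusted p = 0.0194), with 0.0523 to 0.13 without PS0 replicate 3 or any 1 of the 1 h replicates. BAM1, a chloroplast beta-amylase, was the 1 of 12 starch degradation genes (log2 0.93, adjusted p = 0.0215), with 0.0526 to 0.15 without PS0 replicate 1 or any 1 of the 1 h replicates. EXL2, of the sugar starvation list of 17, was lower at log2 -0.75 (adjusted p = 0.0326) and was lost without each library but PS0 replicate 3 (0.0579 to 0.256). The 16 rapid touch, wound and oxidative response genes held SYP121, a syntaxin of secretion and defence (log2 1.03, adjusted p = 0.0334), and MYB73 (-1.11, adjusted p = 0.0197), and both were lost without each library but PS0 replicate 3 (0.0609 to 0.219). None of 47 photosynthesis genes was called by limma, edgeR or DESeq2, and 36 of the 47 changes were negative (median -0.19). At an unadjusted p under 0.05, 3 were lower, where 357 of all 10459 tested genes were. None of 11 heat shock genes was called by limma, with 4 higher at an unadjusted p under 0.05, where 445 of all 10459 tested genes were. The edgeR test called 3 of the 11 higher, where it called 1.23% of all tested genes higher. Among them was the heat shock factor HSFC1, with 107.4, 114 and 166.8 at 1 h and 17.6, 33.7 and 26.3 in PS0 (limma adjusted p = 0.325, edgeR 9.28e-05).

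The choice of water set matters for some of these genes. The 3 water sets, which carry the same treatment label, differed in 2665 of 10459 shoot genes (25.5%) and in 37 of the 91 called ones (40.7%) by limma's moderated F test. All 91 called genes lay outside the range of the 3 PS0 libraries, which are among the 9 water libraries. Of all tested genes, 698 lay above PS0 and 322 (3.08%) above all 9, while 731 lay below PS0 and 277 (2.65%) below all 9. Of the 68 genes called higher, 63 were above all 9 water libraries, and 18 of the 23 called lower were below all 9. The exceptions among the rises were AT5G61820, AT3G53960, NF-YB2, BAM1 and AT1G21680, and among the falls EXL2, ATL15, AT5G47550, SRG3 and AZF3. Of those not described above, NF-YB2 was lost without 1 h replicate 3 (adjusted p = 0.0524), AT5G61820 without 1 h replicate 2 or 3 or PS0 replicate 1 or 2 (0.0547 to 0.0867), and ATL15 without the same 4 libraries (0.106 to 0.232). AT3G53960 (adjusted p from 0.0609 to 0.0839), AT1G21680 (0.0832 to 0.291) and AT5G47550 (0.0759 to 0.175) were lost without each library but PS0 replicate 3. NF-YB2, a subunit of the NF-Y factor, had 388, 494 and 673.1 normalized counts at 1 h and 229.2, 196 and 149.6 in PS0, but 245.2 to 532.9 in S0 and PH0. With S0 and PH0 as the control 83 of the 91 genes were called in the same direction, and AT1G21680, ATL15 and AT3G53960 had the opposite sign, while 2009 genes (19.2%) were called in all.

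The 1 h response was compared next with the later treated shoots, and these comparisons share the 1 h or the PS0 libraries. Of 10459 genes, 120 were higher (1.15%) and 117 lower (1.12%) at 2 h than at 1 h, and 312 were higher (2.98%) and 341 lower (3.26%) at 3 h than at 1 h. Of the 30 dehydration and ABA response genes, 22 were called higher than PS0 at 2 h, where 4.36% of all tested genes were, and 27 at 3 h, where 6.66% were. RD20 (AT2G33380), a caleosin of drought and ABA responses, held 21.2, 19.9 and 8.4 normalized counts in PS0. At 1 h it held 23.1, 18.1 and 24.9, at 2 h 363.1, 529.8 and 365.5, and at 3 h 1180.7, 782 and 1192.6. At 1 h its libraries thus lay near water and at 2 h far above (2 h over 1 h, log2 4.18 ± 0.40, limma adjusted p = 5.17e-06; 3 h over 1 h, 5.50 ± 0.40, adjusted p = 4.26e-08). AT3G03341, annotated as cold-regulated, had log2 3.86 ± 0.44 at 2 h over 1 h (adjusted p = 2.79e-05) and 5.93 ± 0.44 at 3 h over 1 h (adjusted p = 4.78e-08). MAPKKK18 had 3.61 ± 0.58 at 2 h over 1 h (adjusted p = 0.00118). At 3 h over 1 h, LEA7, a late embryogenesis abundant protein, had 5.76 ± 0.59 (adjusted p = 2.37e-06), TSPO, which binds porphyrins, 5.83 ± 0.61 (adjusted p = 2.84e-06), and AT5G05220, uncharacterized, 5.77 ± 0.55 (adjusted p = 1.02e-06). AT1G78070 rose at 2 h over 1 h as well (4.27 ± 0.87, adjusted p = 0.00926; 0.051 without 2 h replicate 3).

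The regulators that had risen at 1 h took different courses afterwards. ATAF1 had 2008.9, 3098 and 1958.9 normalized counts at 2 h and 2890.2, 2332.3 and 2829.3 at 3 h, above its 1 h libraries in each case (2 h over 1 h, log2 1.31 ± 0.24, limma adjusted p = 0.00321). ERF53 had 582, 615.1 and 647.6 at 2 h and 717.3, 697.3 and 1004.9 at 3 h (2 h over 1 h, log2 2.53 ± 0.32, adjusted p = 0.000104). ABI1 had 2166.3, 2487.4 and 2116.5 at 2 h (2 h over 1 h, log2 1.04 ± 0.20, adjusted p = 0.00509). ATAF2, by contrast, had 447.8, 695.9 and 363.2 at 2 h and 404, 332.2 and 429.9 at 3 h, overlapping its 1 h libraries (2 h over 1 h, log2 0.11, adjusted p = 0.908; 3 h over 1 h, -0.22, adjusted p = 0.753). WRKY6 had 74.3, 67.3 and 61.7 at 2 h, below its 1 h libraries and among the PS0 values (2 h over 1 h, log2 -1.37 ± 0.29, limma adjusted p = 0.013). HEC1 was lower at 3 h than at 1 h, with 135.2, 124.1 and 173.5 at 3 h (3 h over 1 h, log2 -0.95 ± 0.21, adjusted p = 0.00877).

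Among the receptors, PYL6 and PYL4 kept falling while PYL5 did not pass the test. PYL6 had 37.5, 18 and 21.7 normalized counts at 2 h and 17.8, 16.2 and 28.4 at 3 h (2 h over 1 h, log2 -1.39 ± 0.29, limma adjusted p = 0.0111). PYL4 had 56.5, 44.9 and 58.3 at 2 h and 23.8, 31 and 31.6 at 3 h (2 h over 1 h, log2 -1.81 ± 0.24, adjusted p = 0.000214). PYL5 had 239.2, 354.7 and 197.6 at 2 h, overlapping its 1 h libraries (log2 -0.21, adjusted p = 0.852). IPT3, a cytokinin synthesis enzyme, held 67, 62.8 and 37.5 in PS0 and 43.5, 40.8 and 35 at 1 h. At 2 h it held 7.5, 4.5 and 6.9, and at 3 h 0, 1.3 and 0. It overlapped the water libraries at 1 h and lay below them at 2 h and 3 h (3 h over 1 h, limma adjusted p = 3.55e-07). Its 2 reads at 3 h give a ratio to 1 h of 0.0162, with an exact 95% counting interval of 0.00194 to 0.0593. PP2-B13, a phloem protein, and AT4G15690, annotated as a thioredoxin superfamily protein, were also lower at 3 h than at 1 h (log2 -3.64 ± 0.75, adjusted p = 0.00469, and -3.49 ± 0.73, adjusted p = 0.0051). AT1G58025, with 1 read in the 2 h libraries (ratio to 1 h 0.009, exact 95% counting interval 0.000227 to 0.0509), and AT5G28610, with 7.5, 0 and 5.7 at 2 h (log2 -3.14 ± 0.69), were lower at 2 h than at 1 h (limma adjusted p = 0.00594 and 0.0175), the call of AT5G28610 being lost without 2 h replicate 2 (0.0841) or any 1 h replicate (0.0547 to 0.103). AT5G58375 (-2.86, adjusted p = 0.0297) and AT1G70470 (-2.76, adjusted p = 0.0309) were lost without 2 h replicate 2 (0.15 and 0.118) or any 1 h replicate (0.0653 to 0.142), and AT5G58375 also without 2 h replicate 3 (0.0513). AT1G58025 was also called lower at 3 h than at 1 h. That call was lost in each of the 6 fits without 1 library (limma adjusted p from 0.0777 to 0.211).

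**Figure D4:**
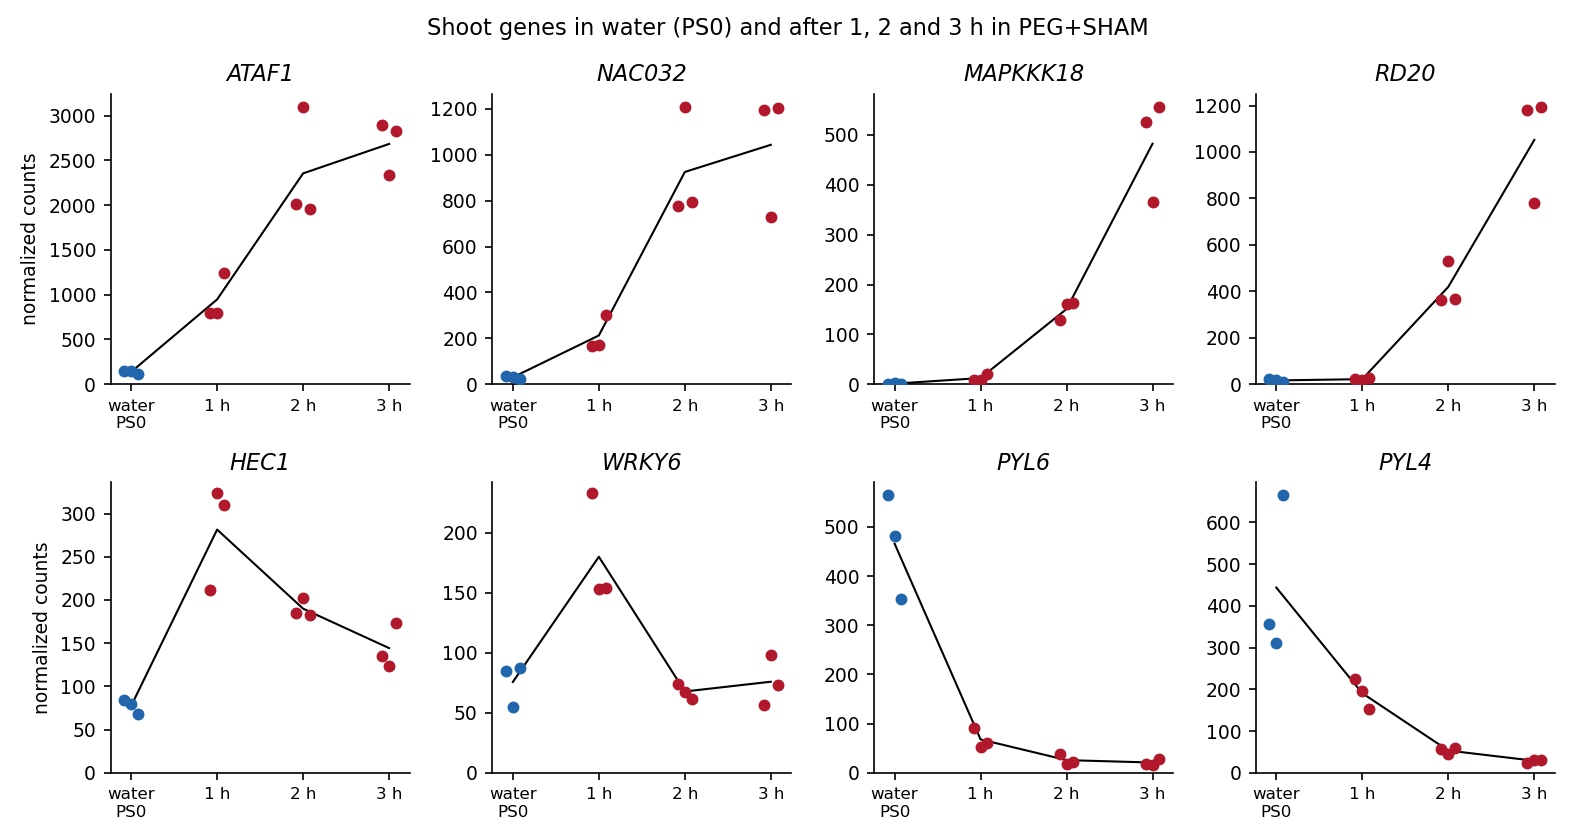
Normalized counts (vertical axes, starting at 0) of 8 genes in shoots of the PS0 water set (blue) and after 1, 2 and 3 h in PEG+SHAM (red), one point a library, with lines through the group means. ATAF1, NAC032, MAPKKK18 and RD20 are higher at 2 h than at 1 h, RD20 being near water at 1 h; WRKY6 is lower again at 2 h and HEC1 at 3 h; PYL6 and PYL4 fall further at 2 h.

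The response of shoots was set against that of roots from the same treatment and time, each over its own PS0 water set. Of the 68 genes called higher in shoots 60 could be tested in roots, and 12 were called higher there too, which is 17.6% of the shoot rises and 12% of the 100 root rises (0.837% of 11950 root genes tested). They were NCED3, PP2CA, ATAF1, ATAF2, NAC102, RAP2.4, AT1G22190, MAPKKK18, NF-YB2, PUB19, BAM1 and AT3G50340, whose shoot call was lost without each library but PS0 replicate 3 (limma adjusted p from 0.0799 to 0.241). Of the 23 genes called lower in shoots, 1, AT5G20790, was called lower in roots, 4.3% of the shoot falls and 1.0% of the 99 root falls (0.828%). For NAC102 the log2 changes were 2.53 in shoots and 2.49 in roots, and for ATAF1 2.75 and 2.61. Such a match of single genes is no test of sameness, and their differences, 0.04 ± 0.39 and 0.14 ± 0.40 SE, leave room for changes of either sign.

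The difference between the shoot and the root response was itself tested in 9191 genes, of which 12 were more positive in shoots (0.131%) and 20 more negative (0.218%). This test took root and shoot libraries as independent, and whether those of the same number shared seedlings was not checked. ABI1 had log2 2.06 in shoots and 0.24 in roots, where the 1 h libraries held 284.6, 563 and 330.5 normalized counts against 330, 294.8 and 329.1 in PS0. The difference was 1.82 ± 0.30 (limma adjusted p = 0.00115). HB6 had 309.5, 281.5 and 330.4 at 1 h in roots, against 343.1, 366.5 and 425.4 in PS0, so it rose in shoots while its root libraries lay below their water libraries (difference 1.70 ± 0.22, adjusted p = 0.00011). ABI2 had 11.4, 8.5 and 12.8 at 1 h in roots, against 17.2, 16.8 and 34.2 in PS0 (difference 3.67 ± 0.79, adjusted p = 0.024), and its call was lost without 1 h shoot replicate 2 (0.0572), 1 h shoot replicate 3 (0.111) or root PS0 replicate 3 (0.0791). PYL6, lower in shoots, had 445.4, 473.4 and 273.7 at 1 h in roots, against 616.4, 582.5 and 844.6 in PS0 (log2 -0.80, limma adjusted p = 0.223 in roots; difference -1.98 ± 0.45, adjusted p = 0.0457). Of the 12 fits that left out 1 library, 4 kept the call of PYL6, and it was as high as 0.175 without 1 h shoot replicate 2.

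On the negative side, RAV1 was lower in shoots but higher in roots, where it had 260.4, 149.3 and 373 normalized counts at 1 h, against 82, 108 and 52.8 in PS0 (root log2 1.64 ± 0.38, limma adjusted p = 0.0384; difference -3.08 ± 0.47, adjusted p = 0.000579). RAV2 and SRG3 had differences of -2.23 ± 0.42 (adjusted p = 0.00469) and -2.59 ± 0.35 (adjusted p = 0.00011), with falls in shoots and root changes of 0.79 and 0.92 that did not pass. EXO had 473, 545.9 and 511.8 at 1 h in roots, against 293.5, 359.4 and 313.6 in PS0, so its root libraries lay above water where its shoot libraries lay far below (difference -2.77 ± 0.44, limma adjusted p = 0.000877). The next 3 genes did not pass in shoots and were called higher in roots. AT2G34510 had 22.2, 8.5 and 23.2 at 1 h in roots, against 1, 3.5 and 0 in PS0 (difference -3.80 ± 0.62, adjusted p = 0.00101). AT1G75960 had 18.8, 21.3 and 26 at 1 h in roots, against 2, 5.3 and 3.1 in PS0 (difference -3.67 ± 0.69, adjusted p = 0.00543). LHCB2.3, an antenna protein of photosystem II whose close relatives may share its reads, had 320.3, 341.2 and 384.2 at 1 h in roots, against 80, 46.9 and 37.3 in PS0 (difference -2.73 ± 0.42, adjusted p = 0.000579). The summed photosynthesis markers of the same root libraries were 3260, 12676.1 and 2074 at 1 h, against 2723, 2453 and 4806 in PS0, so these sums overlapped. The cause of the LHCB2.3 rise in roots was not tested. On the positive side, UGT74F2, which glucosylates salicylate, had 15.5, 12.8 and 21.3 at 1 h in roots, against 66.8, 69.9 and 52.8 in PS0 (difference 2.3 ± 0.32, adjusted p = 0.000165), while in shoots it did not pass. NAM (AT1G52880), a NAC factor, had a difference of 3.44 ± 0.72 (adjusted p = 0.0193; 0.0539 to 0.073 without 1 h shoot replicate 1 or 3 or root PS0 replicate 3), and AT5G58620 one of 1.86 ± 0.43 (adjusted p = 0.0457; kept in 4 of the 12 fits without 1 library, and 0.196 without 1 h shoot replicate 3). Of the 32 calls, 16 held in every fit without 1 library. The fit limited to the 4 groups compared called 3 genes, all more negative in shoots, and 0 more positive.

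**Figure D5:**
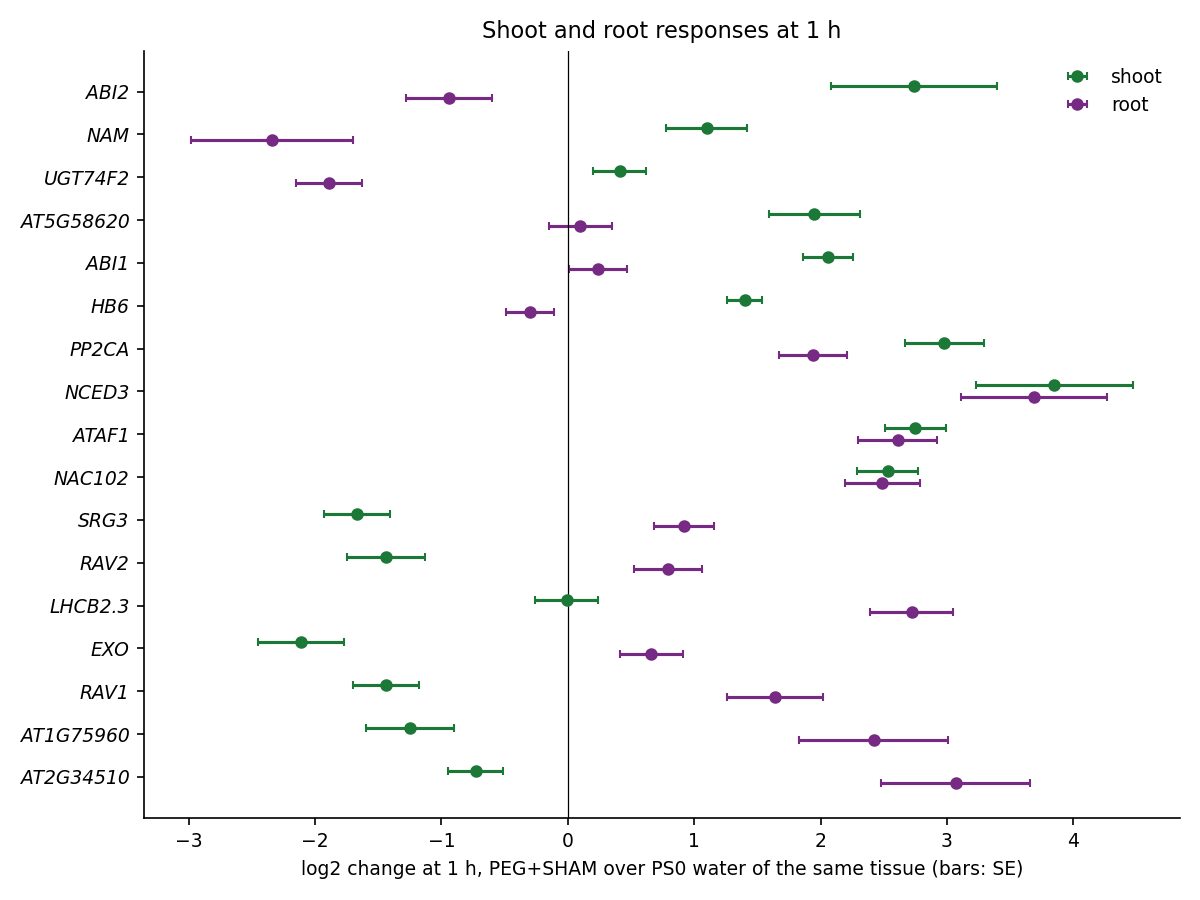
Log2 change at 1 h (PEG+SHAM over PS0 water of the same tissue, horizontal axis) of 17 genes in shoots (green) and roots (purple), with bars of 1 SE. Shoot and root points lie close together for NCED3, ATAF1 and NAC102, apart with the shoot higher for ABI2, ABI1 and HB6, and apart with the root higher for EXO, RAV1, SRG3 and LHCB2.3.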

How the data were processed

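Transcripts were counted by MARS-seq in 36 libraries, 3 in each of 12 groups. The values that the authors deposited are a normalized signal: the values show that each library's gene counts were divided by a single size factor and written to the nearest 0.1. Per the submitters' processing notes, bcl2fastq, cutadapt, STAR 2.4.2a, HTSeq and DESeq2 were used. Not given in the sources used here are the build, the annotation, the treatment of molecular identifiers, the strand setting and any filter on genes, so reads of overlapping or near-identical genes may be shared between them. The table held 16283 genes, of which 16183 (99.39%) matched the RefSeq annotation (TAIR10.1) by locus, which gave symbols, products and promoter sequences; no per-library column was left out.

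Whole reads were recovered from the step in each library's values, and at least 99.957% of a library's values were whole multiples within 0.05. They served for depth, edgeR 4.0.16 and DESeq2 1.42.0. The search and the fits were tested on simulated data. Shoot libraries held 161.7 to 3622.4 kiloreads, and a floor of 3 reads corresponds to 1.94 to 2.66 normalized counts in the 1 h libraries and 1.68 to 10.6 in PS0, for counting error only.

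The main test was limma 3.58.1 (R 4.3.3) with its trend option, applied to log2(signal + 1), a scale that understates changes of genes with low values. The 18 shoot libraries were fitted with 6 group means, and the difference between shoot and root responses in 36 libraries with 12 means. Tested genes reached 5 in 3 or more of the tissue's libraries (in both tissues for that difference), and genes were called at a Benjamini-Hochberg adjusted p below 0.05. All limma, edgeR and DESeq2 p-values given are adjusted over all tested genes unless called unadjusted. Replicate numbers did not pair the shoot libraries, so no replicate term was used. Whether root and shoot libraries of the same number came from the same seedlings was not checked. The fit of both tissues took them as independent. Alternatives were other pseudocounts, filters, scalings, tools, controls and sets of libraries, a replicate block, a depth covariate, and leaving out each library.

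Named genes are the 15 largest rises and 12 largest falls among genes called at 1 h whose higher group averaged at least 20 and did not overlap the other, the 5 largest in each direction for the other comparisons, and members of 35 gene lists (556 of 645 genes are in the table). The members, lists and rules were chosen with earlier results of these data known. Promoter sequences are the 250 bases before RefSeq's gene start, read by locus and not by the authors' coordinates.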

Additional observations from a re-analysis of the deposited data

Results flagged for a closer look

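The log2 response to 1 h in PEG+SHAM differed between shoots and roots, by limma's interaction test, in each of the following genes. The difference, shoot minus root, was 3.67 for ABI2 (adjusted p = 0.024), 3.44 for NAM (0.0193), 2.3 for UGT74F2 (0.000165), 1.86 for AT5G58620 (0.0457) and 1.82 for ABI1 (0.00115). It was -3.8 for AT2G34510 (limma adjusted p = 0.00101), -3.67 for AT1G75960 (0.00543), -3.08 for RAV1 (0.000579), -2.77 for EXO (0.000877) and -2.73 for LHCB2.3 (0.000579). RAV1 passed the test in both tissues with opposite signs, lower in shoots and higher in roots. ABI1, EXO and AT5G58620 passed in shoots and not in roots, whereas UGT74F2, AT2G34510, AT1G75960 and LHCB2.3 passed in roots and not in shoots. ABI2 and NAM passed in neither tissue singly. The calls of ABI2, NAM and AT5G58620 were lost without some single libraries, and those of the other genes were kept in each of the 12 fits without 1 library. The fit limited to the 4 groups compared called 0 genes as more positive in shoots. ABI2, NAM, UGT74F2, AT5G58620 and ABI1 were therefore not called in that fit. The root libraries compared held 429.8 to 7181.5 kiloreads, and each of these genes stayed called without the shallowest, root 1 h replicate 2, and with depth as a covariate.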

How the results depend on the processing

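For shoots at 1 h against PS0, the 91 calls became 168 with edgeR, 204 with DESeq2 (64.2% of them higher, against 74.7%), 40 when only the compared groups were fitted (37 of the 91), 2009 with S0 and PH0 as the control and 1049 with all water sets (42.4% and 42.1% higher), and 28 to 149 without 1 replicate. TMM scaling gave 88 calls, 83% higher. Among alternatives chosen after seeing the data, voom with quality weights gave 179 and leaving out the shallow PH0 replicate 1 and 2 h replicate 2 gave 165. The other scalings, pseudocounts and filters stayed within 1.5 times. The 32 differences between shoot and root responses became 21 with TMM, 103 with DESeq2, 69 with depth as a covariate, 107 with voom, 3 with the compared groups only, and 18 to 69 without 1 replicate (69 without the shallow root 1 h replicate 2, 19 without root PS0 replicate 1, 18 without shoot 1 h replicate 2 and 20 without shoot 1 h replicate 3). From 1 h to 2 h, 237 calls became 396 with edgeR, 453 with DESeq2, 997 with voom, 108 to 178 without 1 replicate and 267 without both shallow libraries. From 1 h to 3 h, 653 became 1155 with edgeR, 1076 with DESeq2, 2049 with voom, 1589 with the compared groups only, 1164 without both shallow libraries and 387 to 458 without 1 replicate. Why the counts moved was not tested.

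Same-numbered 1 h and PS0 libraries correlated at -0.013, -0.137 and -0.222 after removal of group means, and 3 of these 6 libraries correlated best with their own number, so the numbers were not taken as pairs. With a replicate block the 91, 32, 237 and 653 calls became 86, 25, 197 and 607, and the 2665 genes that differ between water sets 2529. Over genes named for their change in shoots at 1 h, 1144 alternative fits of that change kept the direction and the call. Another 196 kept the direction alone, 97 of these without 1 replicate, and none reversed. The differences between tissues are not part of this tally. Among the other called genes, AT1G21680, ATL15 and AT3G53960 had the opposite sign with S0 and PH0 as the control, and ATL15 also with all water sets. Depth limits genes of few reads: 1 read was worth 3.53 normalized counts in PS0 replicate 1.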

Other observations

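PAP28 (AT5G57140), a purple acid phosphatase, had the largest absolute log2 change among tested genes that were not called, and was chosen after its values were seen. It held 1144.4, 1074.1 and 1013.4 normalized counts at 1 h, against 2418.8, 0 and 0 in PS0 (log2 6.33 ± 3.22, limma adjusted p = 0.694). Over all shoot libraries it was above 1000 in 8 and at 18 or less in the other 10, and it was above 1000 in 3 root libraries, so it was present or nearly absent within groups as well as between them.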
